A study of Homo sapiens with 6 samples.

Results

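The Wnt pathway genes described here are the Wnt ligands, the frizzled receptors, the Dickkopf and SFRP inhibitor families, and 19 named genes of the co-receptors, the beta-catenin destruction complex, the TCF/LEF factors and the feedback regulators. They were chosen by symbol, with earlier results of these data known, and make up 56 of the 23368 genes in the table. HepG2 cells, a liver cancer line, were profiled by RNA sequencing after lentiviral delivery of a short hairpin RNA in the pLKO vector. The shCHROME cells (3 libraries, replicates a, b and c) carried a hairpin directed at the variants of CHROME, a long noncoding RNA, and the EV cells (3 libraries, replicates a, b and c) carried a non-targeting hairpin. Both groups were thus transduced HepG2 cells, and the labels state a stably expressed hairpin in each. Each arm was represented by 1 hairpin, and the level of CHROME itself was not analysed here, so effects of that hairpin sequence and of lower CHROME cannot be told apart.

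Wnt ligands are secreted lipid-modified proteins that bind a frizzled receptor together with LRP5 or LRP6. Binding stops a complex of AXIN, APC and GSK3B from marking beta-catenin for destruction, and beta-catenin then enters the nucleus and activates genes with TCF/LEF factors. Several of those targets, among them AXIN2, NKD1, NOTUM, RNF43, ZNRF3 and DKK1, encode proteins that dampen the same signal. In the liver the pathway sets the gene programme of hepatocytes around the central vein. HepG2 is known to carry a heterozygous in-frame deletion in CTNNB1 that removes the phosphorylation sites of beta-catenin, so that the pathway runs in these cells without added ligand.

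The libraries held between 29188213 and 35429420 reads, recovered from the deposited values. Low values do not show that a gene is off in these cells, because the table also gives 0 in each library for IRS2 and APOC2, which hepatocytes normally transcribe. Of the 56 Wnt genes, 33 passed the filter on low reads and were tested, each with at least 87 reads over the 6 libraries. The other 23 had between 0 and 16 reads over the 6 libraries and were not tested. All 10 hepatocyte markers were measured, and their summed level was between 1133661 and 1329995 normalized counts in the shCHROME libraries, against 1414656 to 1535657 in the EV libraries. Of these markers 6 (AFP, ALB, APOA1, SERPINA1, TF and TTR) were lower in shCHROME cells. The 8 markers of embryonic kidney, the origin of the packaging cells, summed to between 2886 and 3037 normalized counts in shCHROME libraries and to between 3273 and 3505 in EV libraries. Most of that sum was CDH2, which fell (2672 ± 78.6 normalized counts in shCHROME cells and 3130 ± 73.2 in EV cells). SALL1, the only other tested marker of that list, had a log2 fold change of 0.24 and did not pass, the other 6 had at most 13 reads over the 6 libraries, and NEFM was at 0. Of the 5 cholangiocyte markers KRT19 was higher (1.55-fold, limma adjusted p = 0.0016). EPCAM and SOX9, the other tested markers of that list, had log2 fold changes of 0.05 and 0.01 and did not pass (limma adjusted p = 0.666 and 0.951). KRT7 and CFTR had 15 and 4 reads over the 6 libraries. The cholangiocyte sum was between 7624 and 7982 normalized counts in shCHROME libraries and between 6992 and 8252 in EV libraries. Of the 7 stellate and fibroblast markers PDGFRB was lower (1.98-fold, limma adjusted p = 0.000257), and DCN was at 0. ACTA2, the only other tested marker of that list, had a log2 fold change of 0.12 and did not pass (limma adjusted p = 0.433). The list summed to between 1454 and 1726 normalized counts in shCHROME libraries and to between 1591 and 1800 in EV libraries. Most of that sum was ACTA2 (1414 ± 176 normalized counts in shCHROME cells and 1298 ± 47.6 in EV cells). Of the tested endothelial and blood markers limma called none, and VWF alone was under 0.05 before adjustment. The endothelial sum was between 951 and 1037 normalized counts in shCHROME libraries and between 1071 and 1122 in EV libraries (TEK at 0), and the blood sum between 430 and 567 in shCHROME libraries and between 370 and 555 in EV libraries (CD3E and HBB at 0). The part of these differences in the results that follow was not tested. In bulk RNA, fewer cells of a type and less RNA per cell cannot be told apart.

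Among the 33 tested genes, 1 rose and 5 fell in shCHROME cells, and 27 did not pass the test (limma on log2(normalized count + 1), Benjamini-Hochberg adjusted p under 0.05 over 14598 genes). DKK1, a secreted inhibitor that blocks LRP5 and LRP6, rose. KREMEN1, a membrane receptor for Dickkopf proteins, fell, as did the frizzled gene FZD9. AXIN2 and NKD1, both feedback inhibitors inside the cell, and the transcription factor gene TBX3 also fell. The calls came to 3.03% of the tested Wnt genes in the higher direction, where the background over all genes was 3.64%, and to 15.2% in the lower direction, where the background was 6.87%. In both directions together 18.2% of them were called, against a background of 10.5%. The median log2 fold change was 0.04 over the 33 genes and 0.01 over all genes tested. Whether the 3 libraries of a group were grown as separate cultures is not stated, so the spread behind the p-values may be technical only.

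**Figure D1:**
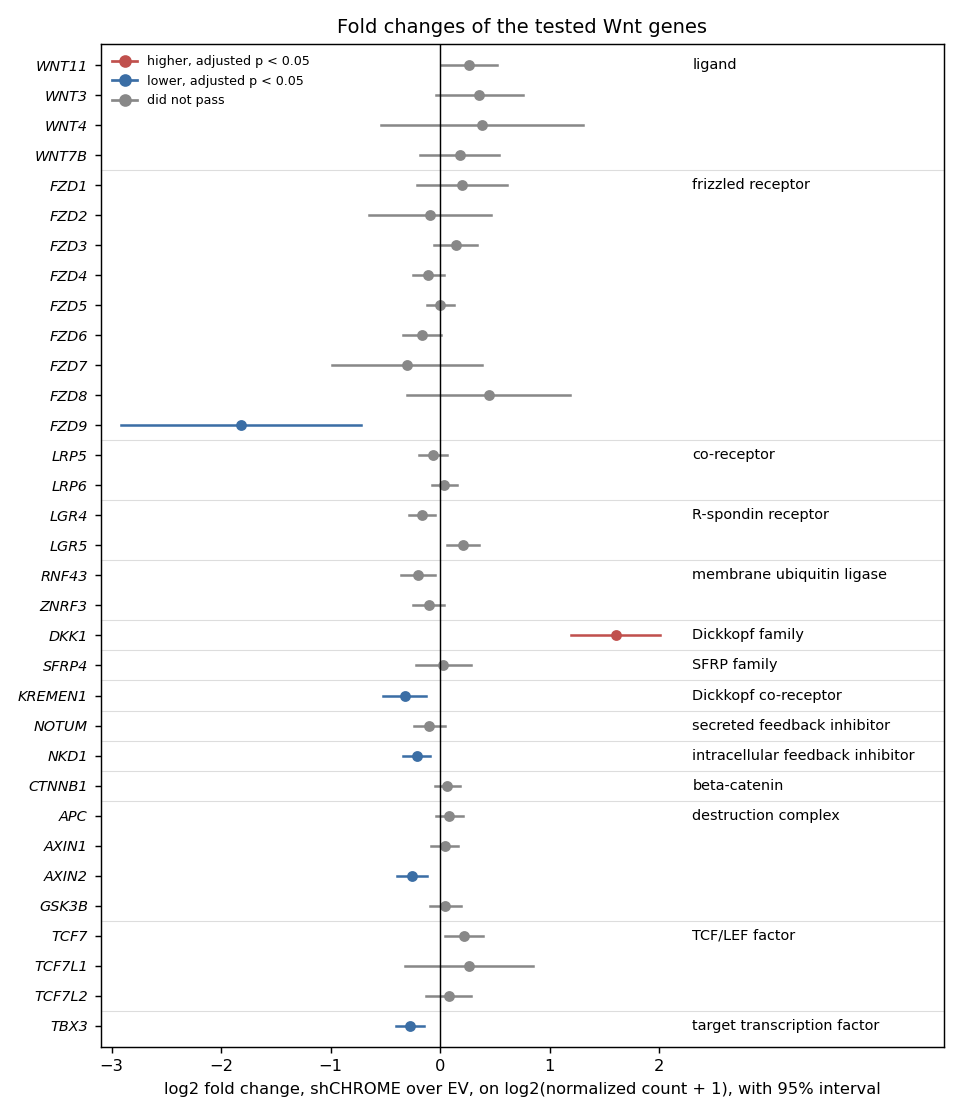
Log2 fold change of each of the 33 tested Wnt genes (shCHROME over EV, x axis, on log2(normalized count + 1)), grouped by role, with 95% intervals from limma as lines. DKK1 stands alone on the right at 1.60 and FZD9 on the left at -1.82 with a wide interval, while 26 of the 33 genes lie within 0.3 of 0.

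The promoter sequences of the called genes are shown because DKK1 is known as a direct target of beta-catenin and TCF factors. RefSeq (GRCh38.p14) promoter windows of 300 bases were matched for 36 of the 56 genes, and among the called genes only for DKK1 and FZD9. The bases upstream of the start site are given 5′ to 3′ for DKK1 at chr10:52314031-52314280 and for FZD9 at chr7:73433528-73433777, both on the plus strand. Capitals mark matches to a TCF/LEF core motif, searched as CTTTGAT or CTTTGAA or CTTTGTT or CTTTGTA on both strands.
DKK1: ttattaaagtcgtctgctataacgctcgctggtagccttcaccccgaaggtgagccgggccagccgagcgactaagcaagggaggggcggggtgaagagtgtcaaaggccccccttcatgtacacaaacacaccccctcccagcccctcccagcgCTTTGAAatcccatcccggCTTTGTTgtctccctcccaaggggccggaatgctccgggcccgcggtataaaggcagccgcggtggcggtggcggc
FZD9: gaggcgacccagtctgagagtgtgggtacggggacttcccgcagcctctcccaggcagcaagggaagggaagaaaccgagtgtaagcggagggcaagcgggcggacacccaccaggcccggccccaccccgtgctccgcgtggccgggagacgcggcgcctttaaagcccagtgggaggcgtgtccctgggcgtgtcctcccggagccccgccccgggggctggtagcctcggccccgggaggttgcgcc
DKK1 held 2 matches, which do not overlap each other, starting at positions -95 and -76 from the start site, and FZD9 held none. Over the whole table, 4829 of 35116 windows (13.8%) held at least 1 match. Among the 36 matched Wnt genes the windows of DKK1 and WNT3 held a match, or 5.56%. A match to these letters is a description of the sequence, and a window without one says only that these letters are not in it.

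DKK1 lies on chromosome 10 and was measured at 242.8, 221.2 and 225.3 normalized counts in shCHROME replicates a, b and c, against 100.3, 81.4 and 51.8 in EV replicates a, b and c. The groups did not overlap, and the lowest shCHROME library was 2.2 times the highest EV library. The means were 229.8 ± 11.5 normalized counts in shCHROME cells and 77.8 ± 24.5 in EV cells (SD, n = 3 each), a log2 fold change of 1.60 (SE 0.19, limma adjusted p = 2.9e-05), or 3.03-fold. The values rest on 260, 214 and 212 reads in the shCHROME libraries and on 90, 89 and 52 in the EV libraries. The call held under all 15 alternatives tried, with adjusted p between 5.64e-13 and 0.000699. In the authors' deposited table the log2 fold change of DKK1 is 0.936, a smaller value than the 1.60 found here, with an adjusted p of 1.05e-10. The deposited fold changes are not a like measure. FZD9, a gene with few reads, is at -0.339 there and at -1.82 here, while AXIN2 is at -0.243 there and at -0.26 here.

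The rest of the Dickkopf family was near the detection limit. DKK2 had 1 read in the shCHROME libraries and 1 in the EV libraries, DKK3 had 6 and 2, and DKK4 had 7 and 8. DKK2 and DKK4 also bind LRP co-receptors, whereas DKK3 is a divergent member of the family. Among the SFRP genes, which encode secreted decoys that bind Wnt ligands, SFRP4 alone was tested. It averaged 261.1 ± 4.16 normalized counts in shCHROME cells and 257.4 ± 31.2 in EV cells (SD, n = 3 each), and its log2 fold change was 0.03 (95% interval -0.22 to 0.28, adjusted p = 0.927). SFRP1, SFRP2 and SFRP5 had 1, 1 and 4 reads in the shCHROME libraries and 5, 1 and 6 reads in the EV libraries.

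Per kilobase of exon, DKK1 was above SFRP4 in shCHROME cells and below it in EV cells. DKK1 had 128.4 ± 6.41 normalized counts per kilobase in shCHROME cells and 43.5 ± 13.7 in EV cells, while SFRP4 had 88.0 ± 1.4 in shCHROME cells and 86.8 ± 10.5 in EV cells. DKK1 thereby made up 58.1% ± 1.28 of the per-kilobase total of both inhibitor families in shCHROME cells, against 32.0% ± 9.33 in EV cells (SD, n = 3 each). Before division by exon length, mean DKK1 was below mean SFRP4 in both groups. The means were 229.8 against 261.1 normalized counts in shCHROME cells and 77.8 against 257.4 in EV cells. The order per kilobase in shCHROME cells thus rests on the annotated exon lengths.

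KREMEN1, on chromosome 22, encodes a transmembrane protein that binds Dickkopf and takes LRP6 off the cell surface with it. It was measured at 995.7, 1174 and 1155 normalized counts in shCHROME replicates a, b and c, against 1560, 1197 and 1424 in EV replicates a, b and c. The groups did not overlap, but shCHROME replicate b and EV replicate b lay close together. Its log2 fold change was -0.33 (SE 0.09, limma adjusted p = 0.029), or 1.25-fold lower. Without shCHROME replicate a or c, or without EV replicate a or c, the call was lost (adjusted p = 0.0853, 0.066, 0.166 and 0.1). Scaling to library totals also ended it (adjusted p = 0.0657), as did the replicate letter as a block (adjusted p = 0.0672). The call of KREMEN1 was thus lost in 6 of 15 alternatives.

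**Figure D2:**
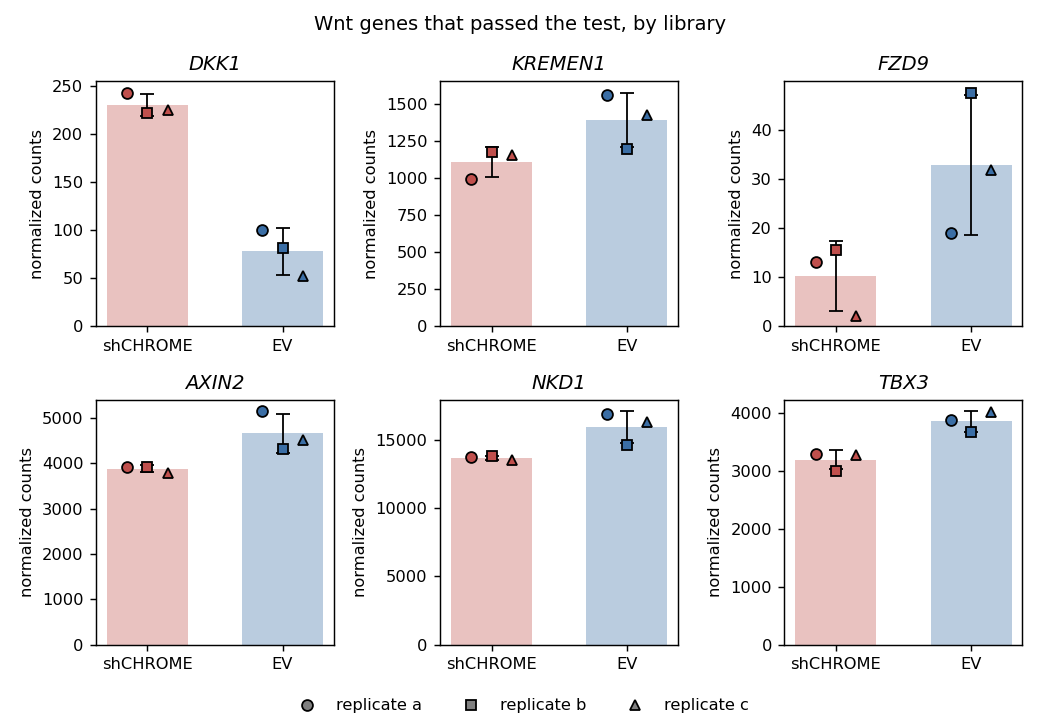
Normalized counts (y axis, from 0) of the 6 Wnt genes that passed the test, by group (x axis). Each symbol is a library, bars are group means and error bars are SDs of 3 libraries; DKK1 is higher in each shCHROME library than in any EV library, and the other 5 genes are lower in each.

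Of the 4 genes of the destruction complex, AXIN2 fell and AXIN1, APC and GSK3B did not pass the test. AXIN2, on chromosome 17, is the scaffold gene that beta-catenin itself induces and is widely used as a readout of the pathway. It was measured at 3927, 3921 and 3793 normalized counts in shCHROME replicates a, b and c, against 5152, 4319 and 4518 in EV replicates a, b and c. The shCHROME libraries lay within a narrow range below each EV library, and EV replicate a was well above the other EV libraries. The log2 fold change was -0.26 (SE 0.07, limma adjusted p = 0.0146), or 1.2-fold lower. Leaving out shCHROME replicate c ended the call (adjusted p = 0.0785), as did leaving out EV replicate a (adjusted p = 0.116, log2 fold change -0.19).

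AXIN1, the constitutive scaffold gene, averaged 4591 ± 243 normalized counts in shCHROME cells and 4460 ± 139 in EV cells, with a log2 fold change of 0.04 (95% interval -0.08 to 0.16). APC, a tumour suppressor gene whose product holds beta-catenin in the complex, was measured at 3501, 3559 and 3675 normalized counts in shCHROME replicates a, b and c, against 3187, 3480 and 3472 in EV replicates a, b and c. These groups did not overlap, yet the log2 fold change of 0.08 did not pass the test (95% interval -0.04 to 0.21, adjusted p = 0.43). GSK3B, the kinase that marks beta-catenin, averaged 2993 ± 81.9 normalized counts in shCHROME cells and 2905 ± 280 in EV cells (SD, n = 3 each). Over the 33 tested genes the groups did not overlap in 11, or 33.3%, where the background was 28%.

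CTNNB1, which encodes beta-catenin, was measured at 20726, 19311 and 20374 normalized counts in shCHROME replicates a, b and c, against 19132, 19943 and 18699 in EV replicates a, b and c. The groups overlapped, and the log2 fold change was 0.06 (95% interval -0.05 to 0.18, adjusted p = 0.522). Per kilobase of exon, CTNNB1 had 2563 ± 93.8 normalized counts per kilobase in shCHROME cells and 2451 ± 80.4 in EV cells (SD, n = 3 each). FZD5 had 2335 ± 57.5 in shCHROME cells and 2335 ± 156 in EV cells. NOTUM was above both CTNNB1 and FZD5, with 4026 ± 472 in shCHROME cells and 4296 ± 83.4 in EV cells. The annotated exons of NKD1 come to 17105 bases, so its level per kilobase is uncertain.

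Of the feedback regulators other than AXIN2 and DKK1, NKD1 fell, and NOTUM, RNF43 and ZNRF3 did not pass the test. NKD1, on chromosome 16, encodes a protein that binds Dishevelled and weakens the signal. It was measured at 13747, 13805 and 13531 normalized counts in shCHROME replicates a, b and c, against 16870, 14652 and 16309 in EV replicates a, b and c. As for AXIN2, the shCHROME libraries lay close together and below each EV library. The log2 fold change was -0.22 (SE 0.06, limma adjusted p = 0.0228), or 1.16-fold lower. The call was lost in 5 of 15 alternatives. These were library totals (adjusted p = 0.0656) and the replicate letter as a block (adjusted p = 0.0523). The others left out shCHROME replicate c, EV replicate a or EV replicate c (adjusted p = 0.102, 0.145 and 0.0972).

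NOTUM, on chromosome 17, encodes a secreted enzyme that strips the lipid from Wnt ligands. It was measured at 8413, 10573 and 9145 normalized counts in shCHROME replicates a, b and c, against 9847, 9946 and 10222 in EV replicates a, b and c. shCHROME replicate b was above each EV library and the other shCHROME libraries were below, and the log2 fold change was -0.10 (95% interval -0.24 to 0.04, adjusted p = 0.411). Without that library the log2 fold change was -0.19 and passed the test (adjusted p = 0.0454).

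RNF43 and ZNRF3 encode membrane ubiquitin ligases that remove frizzled receptors from the cell surface. RNF43 was measured at 1682, 1936 and 1998 normalized counts in shCHROME replicates a, b and c, against 2287, 2075 and 2101 in EV replicates a, b and c. The groups did not overlap, with a log2 fold change of -0.20 (95% interval -0.36 to -0.05, adjusted p = 0.0831). ZNRF3 averaged 3832 ± 186 normalized counts in shCHROME cells and 4135 ± 399 in EV cells (SD, n = 3 each), and the groups overlapped (log2 fold change -0.11, adjusted p = 0.377).

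LGR4 and LGR5 encode R-spondin receptors, which pull RNF43 and ZNRF3 away from frizzled, and LGR5 is itself a known target of beta-catenin. Neither passed the test, and their point estimates had opposite signs. LGR4 was measured at 4507, 4479 and 4655 normalized counts in shCHROME replicates a, b and c, against 4939, 5180 and 5200 in EV replicates a, b and c, without overlap (log2 fold change -0.17, adjusted p = 0.0605). LGR5 was measured at 2560, 2947 and 2939 normalized counts in shCHROME replicates a, b and c, against 2569, 2377 and 2360 in EV replicates a, b and c. EV replicate a lay just above shCHROME replicate a, so the groups overlapped (log2 fold change 0.21, adjusted p = 0.0596). DESeq2 on the recovered reads called both, LGR4 as lower (adjusted p = 0.039) and LGR5 as higher (adjusted p = 0.046). LGR5 was also called with library totals (adjusted p = 0.0231) and without shCHROME replicate a (adjusted p = 0.00956).

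TBX3, on chromosome 12, encodes a T-box repressor that is a known beta-catenin target in liver tumours. It was measured at 3292, 2997 and 3271 normalized counts in shCHROME replicates a, b and c, against 3866, 3668 and 4018 in EV replicates a, b and c. The groups did not overlap, and the log2 fold change was -0.27 (SE 0.06, limma adjusted p = 0.00743), or 1.21-fold lower. Of the 15 alternatives, the call was lost only without EV replicate c (adjusted p = 0.0541).

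Among the 10 frizzled genes, FZD9 fell, 8 did not pass the test and FZD10 is listed at 0 in each library. FZD9, on chromosome 7, was measured at 13.1, 15.5 and 2.13 normalized counts in shCHROME replicates a, b and c, against 19.0, 47.5 and 31.9 in EV replicates a, b and c. These values rest on 14, 15 and 2 reads in the shCHROME libraries and on 17, 52 and 32 in the EV libraries, and both groups were widely spread. The log2 fold change was -1.82 (SE 0.52, limma adjusted p = 0.031). Without shCHROME replicate c the log2 fold change was -1.06 and the call was lost (adjusted p = 0.143), as it was without EV replicate b or c (adjusted p = 0.13 and 0.0915).

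FZD5 dominated the frizzled family at 74.3% ± 0.477 of its per-kilobase total in shCHROME cells and 72.5% ± 1.74 in EV cells (SD, n = 3 each). It was measured at 16061, 15633 and 15291 normalized counts in shCHROME replicates a, b and c, against 15755, 14571 and 16659 in EV replicates a, b and c. All shCHROME values lay inside the EV range, and the log2 fold change was 0.00 (95% interval -0.12 to 0.12, adjusted p = 0.99). FZD4 followed with 12.6% ± 0.97 of the family total in shCHROME cells and 13.2% ± 0.547 in EV cells, and FZD6 with 10.3% ± 1.05 in shCHROME cells and 11.3% ± 1.23 in EV cells. FZD9 made up 0.138% ± 0.0963 of the family total in shCHROME cells and 0.439% ± 0.205 in EV cells.

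FZD4 averaged 2916 ± 190 normalized counts in shCHROME cells and 3149 ± 237 in EV cells, with a log2 fold change of -0.11 (adjusted p = 0.351). FZD6 averaged 1270 ± 146 normalized counts in shCHROME cells and 1423 ± 89.3 in EV cells, with a log2 fold change of -0.17 (adjusted p = 0.22), and was called only without shCHROME replicate a (adjusted p = 0.0429). FZD3, a receptor best known from axon guidance and planar polarity, averaged 590.0 ± 40.5 normalized counts in shCHROME cells and 535.5 ± 37 in EV cells. FZD1, FZD2, FZD7 and FZD8 had group means between 17.2 and 94.9 normalized counts, and the 95% intervals of their log2 fold changes were wide, reaching from -0.99 to 0.38 for FZD7 and from -0.30 to 1.19 for FZD8.

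The co-receptor genes LRP5 and LRP6, whose products are the surface targets of DKK1, did not pass the test. LRP6 was measured at 4658, 4582 and 4639 normalized counts in shCHROME replicates a, b and c, against 4476, 4515 and 4530 in EV replicates a, b and c. The groups did not overlap, yet the log2 fold change was 0.04 (95% interval -0.08 to 0.15, adjusted p = 0.733). LRP5 averaged 8047 ± 473 normalized counts in shCHROME cells and 8435 ± 477 in EV cells (SD, n = 3 each), with a log2 fold change of -0.07 (95% interval -0.20 to 0.06).

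**Figure D3:**
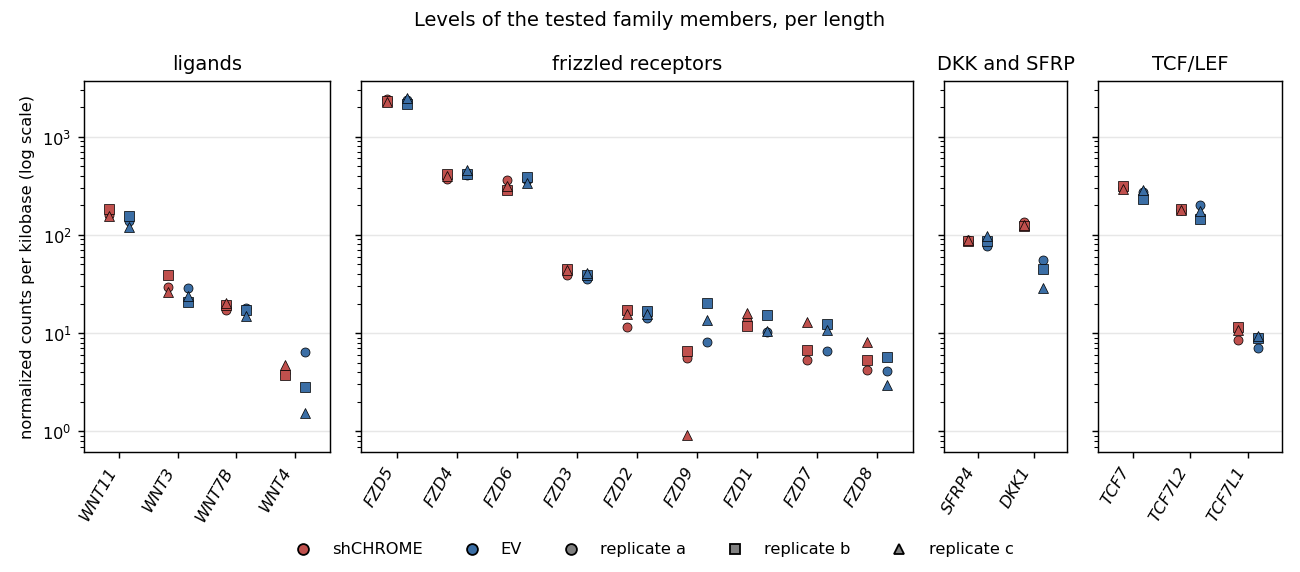
Normalized counts per kilobase of exon (y axis, log scale) of the tested ligands, frizzled receptors, DKK and SFRP genes and TCF/LEF factors (x axis), with 1 symbol per library. FZD5 lies far above the other frizzled genes in both groups, WNT11 above the other ligands, and DKK1 separates into shCHROME values above SFRP4 and EV values below it.

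Of the 19 ligand genes, 4 were tested and limma called none of them, and before adjustment WNT11 alone was under 0.05. The edgeR and DESeq2 tests called none either. WNT11, a ligand known mostly for non-canonical signalling, was measured at 307.3, 350.5 and 299.8 normalized counts in shCHROME replicates a, b and c, against 267.6, 300.7 and 232.0 in EV replicates a, b and c. EV replicate b lay just above shCHROME replicate c, and the log2 fold change was 0.26 (95% interval 0.01 to 0.51, adjusted p = 0.188). WNT11 made up 73.5% ± 1.15 of the per-kilobase ligand total in shCHROME cells and 73.7% ± 3.84 in EV cells (SD, n = 3 each).

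WNT3, a canonical ligand, averaged 106.1 ± 21.7 normalized counts in shCHROME cells and 82.3 ± 12.8 in EV cells, with a log2 fold change of 0.36 (95% interval -0.04 to 0.75). WNT7B averaged 95.7 ± 7.89 normalized counts in shCHROME cells and 84.6 ± 7.82 in EV cells, and WNT4 15.8 ± 1.95 in shCHROME cells and 13.8 ± 9.6 in EV cells (SD, n = 3 each). The point estimates of all 4 tested ligands were above 0, and none passed the test. The other 15 ligands had at most 16 reads over the 6 libraries. WNT2, WNT3A, WNT5A and WNT7A are listed at 0 in each library. WNT1, WNT2B, WNT5B, WNT6, WNT8A, WNT8B, WNT9A, WNT9B, WNT10A, WNT10B and WNT16 had at least 1 read. WNT6 had 5 reads in the shCHROME libraries and 0 in the EV libraries, too few for a fold change.

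Of the TCF/LEF factors, TCF7, TCF7L1 and TCF7L2 were tested and did not pass, and LEF1 had 2 reads in the shCHROME libraries and 1 in the EV libraries. TCF7 was measured at 1245, 1310 and 1209 normalized counts in shCHROME replicates a, b and c, against 1118, 947.0 and 1187 in EV replicates a, b and c. The groups did not overlap, with a log2 fold change of 0.22 (95% interval 0.04 to 0.39, adjusted p = 0.11), and the gene was called with library totals (adjusted p = 0.0486). TCF7L2, the main TCF gene described in liver, averaged 786.3 ± 3.3 normalized counts in shCHROME cells and 751.3 ± 114 in EV cells (SD, n = 3 each). TCF7L1, mostly a repressor, averaged 30.4 ± 4.63 normalized counts in shCHROME cells and 25.2 ± 3.54 in EV cells. Per kilobase, TCF7 made up 61.3% ± 0.822 of the family total in shCHROME cells and 59.1% ± 2.21 in EV cells, and TCF7L2 36.6% ± 0.864 in shCHROME cells and 38.9% ± 2.5 in EV cells.

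Of 129 further genes of the pathway in 7 lists, 100 were tested, of which 2 rose, 7 fell and 91 did not pass. These calls, 2% higher and 7% lower (9% in all), stood beside a background of 3.64%, 6.87% and 10.5% over all genes, so these counts are no result about the lists. Their median log2 fold change was 0.01. SLC1A2, a glutamate transporter gene that marks the hepatocytes around the central vein, was measured at 12200, 13552 and 13661 normalized counts in shCHROME replicates a, b and c, against 17519, 17456 and 17525 in EV replicates a, b and c. It was 1.33-fold lower, with groups far apart and a log2 fold change of -0.42 (SE 0.06, limma adjusted p = 0.000102). RGN, which encodes the calcium-binding protein regucalcin, fell 1.16-fold (adjusted p = 0.0213), a call lost in 6 of 15 alternatives. The other 16 of 18 tested genes in the list of beta-catenin targets of pericentral hepatocytes did not pass. That is 11.1% called, beside the background of 10.5%. DESeq2 called 3 of the 18, where it called 1624 of all 14598 genes tested. Before adjustment limma gave 6 of the 18 under 0.05, among them TNFRSF19 with a log2 fold change of 0.20. The share of all genes at that threshold was not computed, so the 6 are no result about the list. GLUL, glutamine synthetase and the best known gene of the list, averaged 14380 ± 551 normalized counts in shCHROME cells and 15120 ± 886 in EV cells (log2 fold change -0.07, adjusted p = 0.491). The median of that list was -0.14.

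Among 15 tested feedback regulators and general targets, CXXC5 and BMP4 fell and 13 did not pass. That is 13.3% called, beside a background of 10.5% over all genes. CXXC5, whose product binds Dishevelled, fell 1.27-fold (adjusted p = 0.00281). BMP4, a secreted growth factor gene, fell 1.16-fold (adjusted p = 0.0356), a call lost in 6 of 15 alternatives. SP5, a transcription factor gene that beta-catenin induces in many cells, was measured at 5057, 5179 and 5116 normalized counts in shCHROME replicates a, b and c, against 5966, 5831 and 5421 in EV replicates a, b and c, and did not pass (log2 fold change -0.16, adjusted p = 0.0721). CCND1 and MYC, widely cited targets, had log2 fold changes of -0.14 and 0.02 and did not pass.

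In the signal relay 1 of 19 tested genes passed, or 5.26%, where the background over all genes was 10.5%. PPP2R5A, a regulatory subunit gene of protein phosphatase 2A, fell 1.3-fold, to 2208 ± 116 normalized counts in shCHROME cells, against 2863 ± 123 in EV cells (adjusted p = 0.000844). In the list of beta-catenin partners and nuclear cofactors 1 of 22 passed, or 4.55% against the same background. CTNNBIP1, which encodes an inhibitor that keeps beta-catenin from TCF factors, rose 1.18-fold (adjusted p = 0.0498), a call lost in 10 of 15 alternatives, edgeR among them. In the non-canonical branch 2 of 22 fell and 1 rose, or 13.6% called beside a background of 10.5%. PRICKLE2, a planar polarity gene, fell 2.38-fold, to 72.8 ± 21 normalized counts in shCHROME cells, against 170.1 ± 22.5 in EV cells (SD, n = 3 each, adjusted p = 0.000546). CELSR3, an atypical cadherin gene of the same system, fell 1.35-fold (adjusted p = 0.0266), and MAPK9, which encodes a JNK kinase, rose 1.16-fold (adjusted p = 0.0273), calls lost in 3 and 6 of 15 alternatives.

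Of the extracellular modulators 4 were tested, and of the genes for Wnt secretion and R-spondins only PORCN, and none of these 5 passed. At an unadjusted p under 0.05 limma gave 1 of the 5, APCDD1 (log2 fold change -0.49, adjusted p = 0.193), and edgeR and DESeq2 called 0 of the 5. PORCN, the enzyme that attaches the lipid to Wnt ligands, averaged 231.8 ± 56.7 normalized counts in shCHROME cells and 229.5 ± 3.3 in EV cells. WLS, which carries ligands to the cell surface, had 2 reads over the 6 libraries, and no R-spondin gene had more than 2.

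**Figure D4:**
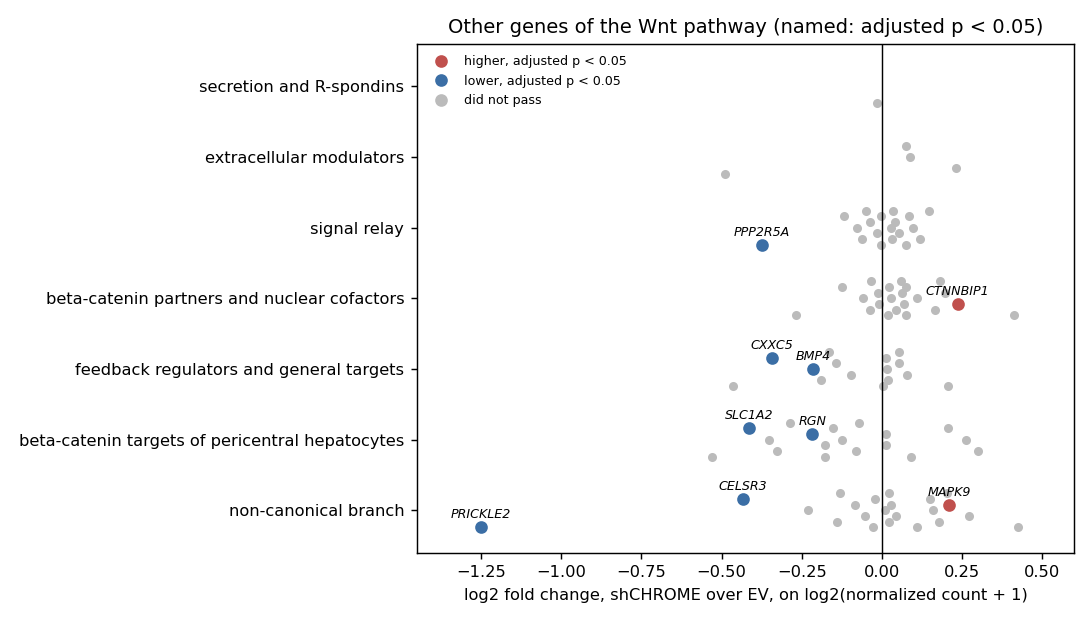
Log2 fold change (x axis, shCHROME over EV, on log2(normalized count + 1)) of the 100 tested further genes of the Wnt pathway by list (y axis), with 1 point per gene and list; TNFRSF19 stands in 2 lists. PRICKLE2 lies farthest from 0 at -1.25, and 91 of the 100 genes did not pass the test.

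Over all 14598 genes, 532 were higher and 1003 lower in shCHROME cells, so lower genes were 65.3% of the calls, and 42.9% with libraries scaled to their totals. In the authors' deposited table an adjusted p is given for 33 of the Wnt genes, and 6 of these are under 0.05, where the background is 9.04%. They are the 6 genes called here. The mean in that table differs by over 1% from the mean of these 6 libraries for 24 of the 33 tested Wnt genes, so whether its p-values rest on these libraries alone is not known.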

How the data were processed

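Total RNA libraries were made with an Illumina TruSeq kit and sequenced in pairs, per the labels' protocols. Per the submitters' processing notes, STAR 2.5, featureCounts 1.5.2, DESeq2 (given as version 3.4) and the build hg19 were used; annotation and strand setting: not given in the sources used here. Reads of overlapping or antisense genes may thus be shared. In the authors' deposited table, each gene has a normalized signal per library (read counts over a size factor) beside their own log2 fold change and adjusted p-value, whose sign follows shCHROME over EV. After removal of 1288 repeated rows, 23368 genes were left. Dividing each library by its smallest value above 0 gave whole numbers, taken as reads, for 100% of genes (tolerance 0.01). Groups and replicate letters came from the sample titles.

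The main test was limma 3.58.1 on log2(value + 1) with a mean-variance trend, group as the only term, over 14598 genes kept by filterByExpr of edgeR 4.0.16, with Benjamini-Hochberg adjustment, two-sided. Fold changes are on that scale, which understates those of low genes; a fold in the text is 2 to the power of the log2 value. This step was first tried on counts with known changes. Alternatives were edgeR's quasi-likelihood test and DESeq2 1.42.0 on the recovered reads (1553 and 1624 genes called, against 1535), 3 library scalings, a pseudocount of 0.1, filters of 1 read or of 1 CPM in 3 libraries, the replicate letter as a block and 6 fits that each leave out a library. Levels per kilobase used the exon lengths of GENCODE 29, matched by symbol for all 56 genes, which may differ from the annotation the reads were counted on. Promoters came from RefSeq (GRCh38.p14). No replicate pair agreed within counting noise (chi-square over its degrees of freedom 5.51 to 16.2). Each Wnt gene that passed the test is given with its value in every library, as are others described by role; of the further pathway genes, those that passed and a few well-known targets are named, most by fold or group means. The genes and lists were chosen with earlier results of these data known.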

Additional observations from a re-analysis of the deposited data

How the results depend on the processing

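The number of Wnt genes called moved with the setting, and no gene called under any setting reversed its direction. Against 1 higher and 5 lower, scaling libraries to their totals gave 3 higher (DKK1, LGR5 and TCF7) and 3 lower (AXIN2, FZD9 and TBX3), and DESeq2 gave 2 higher and 6 lower (LGR5 and LGR4 added). Over all genes the main test called 532 higher and 1003 lower, library totals 936 and 702, and DESeq2 573 and 1051. The median log2 fold change over all genes was 0.058 with library totals, against 0.009 in the main test. With 1 library left out, between 1 and 2 were higher and between 1 and 6 lower: TBX3 alone was lower without shCHROME replicate c, AXIN2 alone without EV replicate c, and FZD9 and TBX3 without EV replicate a. Over the same 6 settings, the calls among further pathway genes ran from 4 to 9 and those among all genes from 844 to 1579. With the replicate letter as a replicate block, 3 Wnt genes were lower (AXIN2, FZD9 and TBX3) and the number of calls over all genes was 1113. Libraries with the same letter did not deviate together (correlations of -0.047 for a, -0.091 for b and 0.044 for c), so the letters were not taken to pair the libraries. With at least 1 CPM in 3 libraries FZD9 was not tested. DKK1 was called in each setting, and TMM scaling, DESeq2 size factors, a pseudocount of 0.1, no filter and edgeR each called the same 6 Wnt genes. At this depth FZD9 rested on 31 reads in shCHROME libraries and 101 in EV libraries, and the 23 untested genes had at most 16 reads in all. The cause of these differences between settings was not tested.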

Other observations

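The mean of DKK1 is 142.9 in the authors' deposited table, against 153.8 over these 6 libraries. FZD10 and WNT3A are listed at 0 in each of the 6 libraries, yet that table gives them a mean of 0.119 and 0.104. WNT2, WNT5A and WNT7A have a mean of 0 in that table.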
